A study of Mus musculus with 6 samples.

Results

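AMP-activated protein kinase (AMPK) is a heterotrimer, and RNA of its subunits and of the LKB1 complex that activates it was examined in cultures labelled as female germline stem cells (FGSCs). The set held 10 genes, taken by name, of 55401 genes in the deposited RNA-seq table: the catalytic subunits Prkaa1 and Prkaa2, the β subunits Prkab1 and Prkab2, the γ subunits Prkag1, Prkag2 and Prkag3, and the LKB1 complex of Stk11, Strada and Cab39. Each of the 10 was found by its Ensembl identifier, and 8 averaged 1 FPKM or more over the libraries, the level required for testing. FPKM counts the fragments on a gene per kilobase of gene model, scaled to the depth of the library, so that levels of different genes can be set side by side. The libraries came from a C57BL/6 FGSC line at late passage, grown on inactivated STO feeder fibroblasts with serum, leukemia inhibitory factor, epidermal growth factor, basic fibroblast growth factor and glial cell line-derived neurotrophic factor. Of the 6 libraries, 3 came from untreated control cultures and 3 from cultures given 1 μM metformin for 24 h, which is the only labelled difference between the groups. The source of all libraries was 1 cell line, and nothing states that repeats were separate cultures, so p-values measure only the spread between these libraries, which may be technical.

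AMPK is a sensor of cellular energy. Its α subunit carries the kinase domain, the β subunit is a scaffold that also binds glycogen, and the γ subunit binds AMP, ADP and ATP in competition. LKB1, the product of Stk11, phosphorylates the activation loop of the α subunit, and it is itself held in an active shape by the pseudokinase STRAD and the adaptor MO25. Metformin is widely used to lower blood glucose and is known to activate AMPK in several cell types. Phosphorylation and nucleotide binding set the activity of the complex and are not visible in RNA. The comparison therefore addressed which subunit isoforms these cells transcribe and whether their RNA differed with metformin.

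The libraries held about 13400000 to 14000000 mapped fragments, as estimated from the FPKM steps of short genes. The labelled cell type was checked against marker lists. Of 6 germ cell markers, 3 (Dazl, Dppa3 and Pou5f1) were listed at 0 in every library, and the summed FPKM of the list was 0.48 to 1.38 in control and 0.33 to 0.93 in metformin libraries. Ddx4, the RNA helicase also called Mvh, stayed at or below 0.05 FPKM. The 6 fibroblast markers summed to 0.55 to 0.68 FPKM in control and 0.4 to 0.58 in metformin libraries, with Col1a1 at 0.1 FPKM or less. By contrast, all 6 blood cell markers were tested and summed to 318 to 329 FPKM in control and 326 to 331 in metformin libraries. Their means over the 6 libraries were 13.4 FPKM for Ptprc, 23.2 for Spi1, 34.1 for Vav1, 65.7 for Cd48 and 72.6 for Laptm5. The highest was Kit at 116.14 to 119.14 FPKM, a gene that is not particular to blood cells. Ifitm3, also called Fragilis, had 0.32 to 1.32 FPKM and made up most of the germ cell sum. Apart from it, the germ cell genes were at or near 0. The study itself reported RT-PCR products of these 6 genes, and Mvh protein by immunofluorescence, in its FGSCs. The difference between those assays and these FPKM was not tested, and the cells are called here by their label only.

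Of the catalytic subunits, the cells transcribed Prkaa1 and no detectable Prkaa2. Prkaa1 (ENSMUSG00000050697, GRCm38 chromosome 15, 5143861 to 5181899, plus strand), which encodes α1, had 17.23, 16.55 and 17.28 FPKM in control repeats 1 to 3 and 15.78, 17.25 and 16.56 FPKM in metformin repeats 1 to 3. The ranges of the groups overlapped, and the highest and next highest values, those of control repeat 3 and metformin repeat 2, were nearly equal. Its level stood at the 67.7th percentile of the 10661 tested genes, and it rested on about 1030 to 1125 fragments per library. Prkaa2 (ENSMUSG00000028518, chromosome 4, 105029874 to 105109890, minus strand), which encodes α2, the isoform prominent in skeletal and heart muscle, was listed at 0 FPKM in all 6 libraries. At this depth 3 fragments on its 7969 bp of exons correspond to at most 0.0281 FPKM, which allows a share of up to 0.178% of the catalytic subunit FPKM. This limit covers counting error only. In the search run, neither transcript matched another place in the mouse genome over at least 200 bp at 95% identity or more. The search dropped matches that scored far below the best one, so the shorter of such copies could have been missed.

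The sequences before the annotated starts of the pair are shown because the transcribed catalytic gene and the one listed at 0 differed there in composition but were both rich in CpG. Each run gives the 250 bases before the start from the RefSeq promoter table of GRCm38.p6, read 5′ to 3′ on the strand of the gene, and capitals mark CG dinucleotides. The RefSeq starts can differ from the ends of the deposited gene models.
Prkaa1, chr15:5143611-5143860, plus strand: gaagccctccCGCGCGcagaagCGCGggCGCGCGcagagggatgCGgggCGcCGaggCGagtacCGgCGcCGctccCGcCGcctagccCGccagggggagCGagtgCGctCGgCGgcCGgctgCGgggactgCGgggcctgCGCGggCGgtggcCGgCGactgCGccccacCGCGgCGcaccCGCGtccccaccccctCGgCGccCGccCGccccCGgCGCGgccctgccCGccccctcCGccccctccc
Prkaa2, chr4:105109899-105110148, minus strand: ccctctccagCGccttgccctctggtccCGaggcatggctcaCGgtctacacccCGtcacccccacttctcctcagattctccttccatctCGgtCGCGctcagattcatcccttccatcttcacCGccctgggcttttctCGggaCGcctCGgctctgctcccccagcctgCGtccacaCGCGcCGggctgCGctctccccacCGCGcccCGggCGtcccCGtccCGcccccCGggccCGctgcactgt
The Prkaa1 window held 45 CG dinucleotides and 85.2% G or C, and the Prkaa2 window held 24 and 70.0%. Among 32851 promoter windows of this length, 0.4% held at least as many CG as that of Prkaa1 and 12.0% at least as many as that of Prkaa2, with a median of 6. Windows of the transcribed members ranged from 4 CG, for a Prkag2 window, to the 45 of Prkaa1, with 24 for Stk11 and for Prkab1. A link between CG count and RNA level was not tested.

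**Figure D1:**
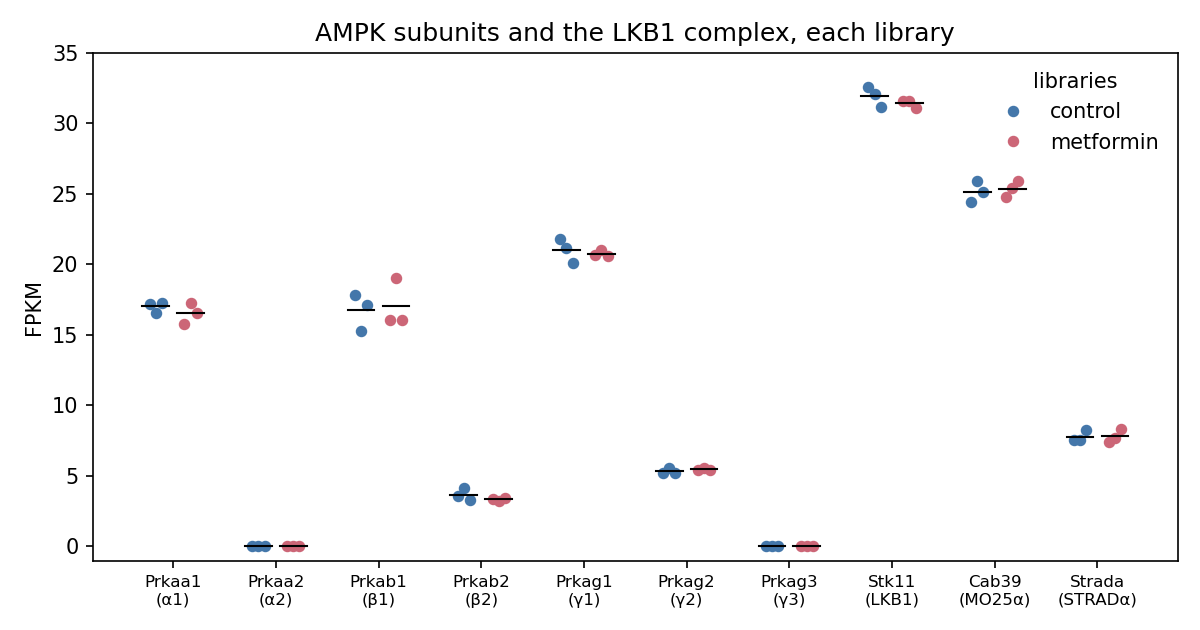
FPKM (vertical axis) of the 10 genes in each of 3 control (blue) and 3 metformin (red) libraries, with a black bar at each group mean. Prkaa2 and Prkag3 lie at 0 in all 6 libraries, Stk11 is highest in each, and the points of the groups overlap for every gene above 0.

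Both β subunits were transcribed, with Prkab1 well above Prkab2. Prkab1 (ENSMUSG00000029513, chromosome 5, 116013586 to 116024508, minus strand), which encodes β1, had 17.81, 15.29 and 17.14 FPKM in control repeats 1 to 3 and 16.06, 19.05 and 16.04 FPKM in metformin repeats 1 to 3. The lowest value was that of control repeat 2 and the highest that of metformin repeat 2, and the other 4 libraries lay between them. Its coefficient of variation was 7.79% in control and 10.2% in metformin libraries, where counting alone would give about 3.7%. Its spread within groups, pooled on the log2 scale, was the largest of the 8 tested members and at the 84.5th percentile of all tested genes. Prkab2 (ENSMUSG00000038205, chromosome 3, 97658193 to 97673812, plus strand), which encodes β2, had 3.57, 4.12 and 3.31 FPKM in control repeats 1 to 3 and 3.37, 3.24 and 3.40 FPKM in metformin repeats 1 to 3. Its coefficient of variation was 11.3% in control and 2.55% in metformin libraries. Control repeat 2, lowest for Prkab1, was highest for Prkab2. The β1 share of β subunit FPKM was 78.8% in that library and 82.5% to 85.5% in the other 5.

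The γ subunits were represented by Prkag1 and, at a lower level, Prkag2. Prkag1 (ENSMUSG00000067713, chromosome 15, 98812797 to 98831521, minus strand), which encodes γ1, had 21.78, 21.19 and 20.12 FPKM in control repeats 1 to 3 and 20.67, 21.02 and 20.59 FPKM in metformin repeats 1 to 3. The metformin libraries all lay within the control range. Prkag2 (ENSMUSG00000028944, chromosome 5, 24862744 to 25100642, minus strand) encodes γ2, which is known for variants that cause glycogen storage in the heart. It had 5.23, 5.54 and 5.22 FPKM in control repeats 1 to 3 and 5.41, 5.58 and 5.41 FPKM in metformin repeats 1 to 3. Here too the ranges overlapped, with control repeat 2 inside the metformin range. Prkag3 (ENSMUSG00000006542, chromosome 1, 74738922 to 74749221, minus strand), which encodes the γ3 isoform of fast skeletal muscle, was listed at 0 FPKM in all 6 libraries. Its 3105 bp of exons set a limit of at most 0.0721 FPKM for 3 fragments, which allows up to 0.285% of the γ subunit FPKM. None of 6 muscle markers reached a mean of 1 FPKM, and their sum was 0.36 to 0.52 FPKM in control and 0.24 to 0.35 in metformin libraries.

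The 250 bases before the starts of Prkag1 and Prkag3 are shown as those of a transcribed γ gene and of the one listed at 0, in the same form, with CG in capitals. Taken from the RefSeq starts, the Prkag3 window lies inside the deposited gene model, which begins farther upstream, and the Prkag1 window overlaps the first bases of its model.
Prkag1, chr15:98831509-98831758, minus strand: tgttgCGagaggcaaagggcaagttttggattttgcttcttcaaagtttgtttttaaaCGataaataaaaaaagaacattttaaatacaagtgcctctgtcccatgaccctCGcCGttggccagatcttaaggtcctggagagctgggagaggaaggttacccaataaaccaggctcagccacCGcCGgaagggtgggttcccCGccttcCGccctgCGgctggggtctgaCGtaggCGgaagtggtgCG
Prkag3, chr1:74748956-74749205, minus strand: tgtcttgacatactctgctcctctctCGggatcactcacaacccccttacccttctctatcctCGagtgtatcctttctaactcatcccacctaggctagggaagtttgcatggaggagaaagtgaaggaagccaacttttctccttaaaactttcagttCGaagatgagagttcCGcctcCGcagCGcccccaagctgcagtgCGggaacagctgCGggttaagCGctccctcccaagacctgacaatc
These windows held 12 and 9 CG dinucleotides, with 51.6% and 52.4% G or C, and 33.5% and 40.3% of all promoter windows held at least as many.

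The level of γ2 relative to γ1 depends on the gene length used for FPKM. In short genes with several transcripts, low FPKM values gave whole fragments in 76.7% of 189 values when multiplied by the union of all exons and in 5.3% when multiplied by the longest transcript, with a tolerance of 0.1 fragments. The deposited values thus follow the union of exons, which lowers the FPKM of genes with many alternative exons. Prkag2, with 3 annotated starts in the promoter table, has a union of 6480 bp and a longest coding transcript of 3331 bp, against 1647 and 1638 bp for Prkag1. With the union, γ1 made up 79.0% to 80.6% of the γ subunit FPKM in the 6 libraries, and with the longest coding transcript 66.1% to 68.3%. The estimated fragments themselves were about equal, at 463 to 484 for Prkag1 and 454 to 505 for Prkag2. γ1 held the larger share per length under either choice.

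**Figure D2:**
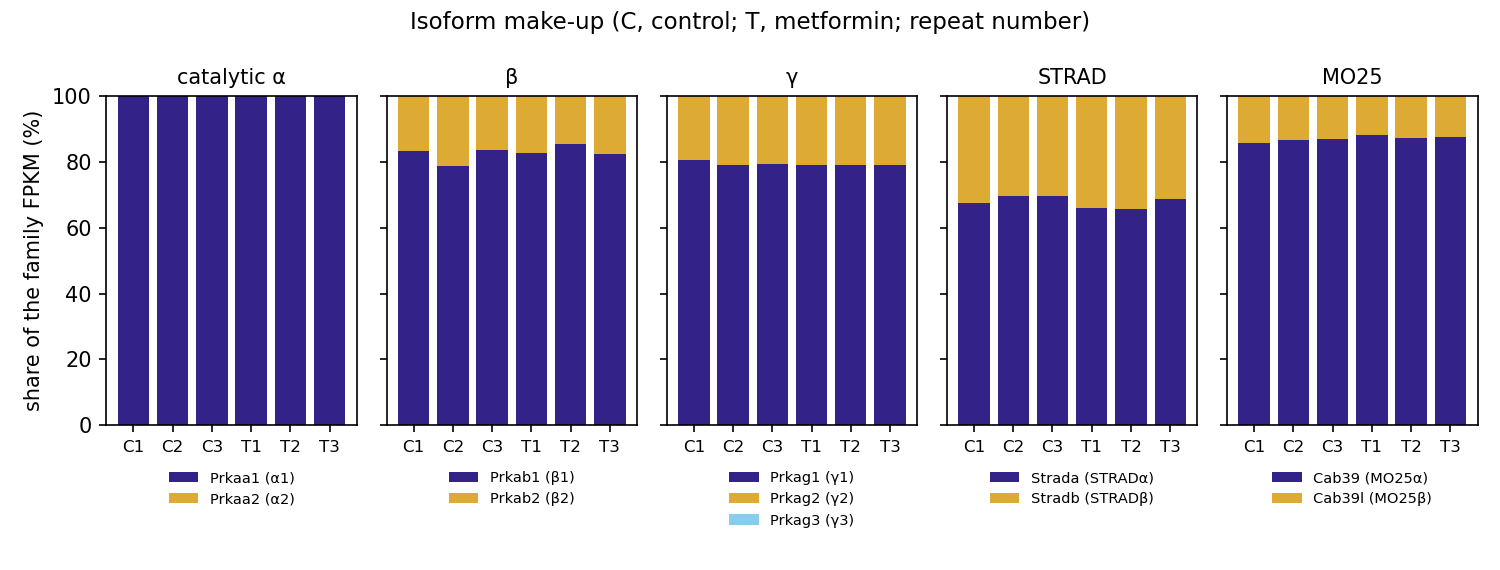
Share of the family FPKM in percent (vertical axis) held by each isoform in control (C) and metformin (T) repeats 1 to 3, in panels for catalytic α, β, γ, STRAD and MO25. The first isoform of each family holds the larger part in every library, and α1 holds 100%.

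The subunit families were also set against each other per length. The ratio of β to α FPKM was 1.2 ± 0.0366 (SD, n = 3) in control and 1.23 ± 0.0591 (SD, n = 3) in metformin libraries. The ratio of γ to α was 1.55 ± 0.0759 (SD, n = 3) and 1.59 ± 0.0576 (SD, n = 3), respectively. Neither ratio differed beyond the spread between libraries (two-sided exact permutation tests, p = 0.6 and p = 0.5, where 3 libraries against 3 cannot give less than 0.1). With the longest coding transcript as length, the mean over the 6 libraries was 1.69 for the ratio of β to α and 1.88 for that of γ to α, beside 1.22 and 1.57 with the union.

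All parts of the LKB1 complex were transcribed, and the kinase itself had the highest FPKM of the 10 genes. Stk11 (ENSMUSG00000003068, chromosome 10, 80115803 to 80130682, plus strand) had 32.59, 32.06 and 31.14 FPKM in control repeats 1 to 3 and 31.63, 31.59 and 31.12 FPKM in metformin repeats 1 to 3. These values were close together, with a spread on the log2 scale at the 7.5th percentile of the tested genes. Cab39 (ENSMUSG00000036707, chromosome 1, 85793441 to 85851576, plus strand), which encodes the adaptor MO25α, had 24.45, 25.92 and 25.11 FPKM in control repeats 1 to 3 and 24.77, 25.42 and 25.91 FPKM in metformin repeats 1 to 3. Again the metformin libraries lay within the control range. Cab39 was the 1 member for which the search found such a near-identical copy elsewhere in the genome, over 439 of the 3805 bp of its longest coding transcript. Strada (ENSMUSG00000069631, chromosome 11, 106163330 to 106202168, minus strand), which encodes the pseudokinase STRADα, had 7.56, 7.56 and 8.23 FPKM in control repeats 1 to 3 and 7.39, 7.72 and 8.30 FPKM in metformin repeats 1 to 3. In both groups repeat 3 was highest. The gene model of Strada overlaps that of Ccdc47 on the same strand over 4761 bp, and Ccdc47 had a mean of 23.7 FPKM, so the Strada value is uncertain to the extent that the counting assigned shared fragments.

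The paralogs Stradb and Cab39l, which encode STRADβ and MO25β, were transcribed at lower FPKM than Strada and Cab39. Stradb had 3.63, 3.30 and 3.59 FPKM in control repeats 1 to 3 and 3.79, 4.0 and 3.75 FPKM in metformin repeats 1 to 3, so that each metformin library lay above each control library. Cab39l had 4.08, 3.91 and 3.69 FPKM in control repeats 1 to 3 and 3.30, 3.67 and 3.67 FPKM in metformin repeats 1 to 3, and here each metformin library lay below each control library. Cab39l overlaps Cdadc1 on the opposite strand over 26377 bp, with a mean of 4.52 FPKM for Cdadc1. The summed STRAD level was 0.339 to 0.387 of that of Stk11 over the 6 libraries, and the summed MO25 level 0.875 to 0.951. With the longest coding transcript as length, the MO25 ratio was 0.53 to 0.576 and the STRAD ratio 0.359 to 0.412. The length of Stk11 used here was 2566 bp, whereas the copy search took a Stk11 transcript of 3663 bp. Both ratios depend on this choice.

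The order of the 8 transcribed members by mean FPKM was Stk11 (31.7), Cab39 (25.3), Prkag1 (20.9), Prkab1 (16.9), Prkaa1 (16.8), Strada (7.79), Prkag2 (5.4) and Prkab2 (3.5). Of the 7 neighbouring pairs, 6 kept their order in all 6 libraries (two-sided exact sign-flip permutation test within libraries, p = 0.0312 for each, adjusted p = 0.0365 over the 7 pairs). That p is the smallest this test can give with 6 libraries. The pairs were also set by the means of these same libraries, so the p-values are no independent support for the order. Prkab1 and Prkaa1 did not differ beyond their spread, with Prkab1 higher in 3 of 6 libraries and a mean log2 ratio of 0.01 ± 0.09 (SD, n = 6, permutation p = 0.812). These tests cover the spread between libraries and not the length or sequence of the genes. With the longest coding transcript as length, Prkab1 had a mean of 24.8 FPKM and moved above Prkag1 with 21.0 FPKM. Stk11 was then highest at 56.6 FPKM, with its length taken as 2566 bp, and Prkab2 lowest at 3.56 FPKM.

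Metformin was compared with control to ask whether the RNA of AMPK or of its activating complex changed. No member passed the test, with 4 of the 8 tested members higher and 4 lower with metformin. Of the 8, 0 had an adjusted p under 0.05 (limma on log2(FPKM + 1) with Benjamini-Hochberg adjustment over all tested genes), where 3 genes or 0.0281% of all tested genes did. At an unadjusted p under 0.05 the count was also 0 of 8, against 10.8% of all tested genes. The values of the groups overlapped for all 8, and they did not overlap for 17.0% of all tested genes. With 8 genes, counts of 0 cannot be told apart from these shares. The median size of the log2 difference, regardless of sign, was 0.022 for the members and 0.049 for all tested genes. The spread within groups was also smaller for the members, with a median log2 SD of 0.045 against 0.060. These comparisons were not matched for level or spread. In cultures such as these, fewer cells of a type and less RNA per cell cannot be told apart.

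The intervals set bounds on the differences. Prkaa1 averaged 17.0 ± 0.408 FPKM in control and 16.5 ± 0.735 FPKM in metformin libraries (SD, n = 3 each), and its log2 fold change was -0.04 (standard error 0.04, 95% interval -0.13 to 0.05, adjusted p = 0.746 from limma). On the log2(FPKM + 1) scale this interval corresponds to a change between -8.9% and 3.8%. Stk11 averaged 31.9 ± 0.734 and 31.4 ± 0.284 FPKM (SD, n = 3 each), and its log2 fold change was -0.02 with an interval of -0.08 to 0.04, or a change between -5.7% and 3.0% (adjusted p = 0.816 from limma). Changes of the catalytic subunit or of its upstream kinase within these bounds could not be told from none. The largest estimate among the members was that of Prkab2, with 3.67 ± 0.414 FPKM in control and 3.34 ± 0.085 FPKM in metformin libraries (SD, n = 3 each), where the log2 fold change was -0.10 (standard error 0.07, 95% interval -0.27 to 0.07, adjusted p = 0.644 from limma). Its 3 metformin libraries lay below the control mean, but within the control range for 2 of them. Without control repeat 2, the library with its highest value, its log2 fold change was -0.03. Prkab1 had a log2 fold change of 0.02 and the interval of -0.16 to 0.21, wider than for Prkaa1, and this estimate turned to -0.04 without control repeat 2 and to -0.06 without metformin repeat 2.

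For the remaining members, the log2 fold change was -0.02 for Prkag1 (interval -0.10 to 0.07), 0.03 for Prkag2 (-0.07 to 0.13), 0.01 for Cab39 (-0.06 to 0.09) and 0.0029 for Strada (-0.12 to 0.13). Their adjusted p from limma lay between 0.830 and 0.993. The direction of Prkag1, Cab39 and Strada turned when single libraries were left out, and that of Strada also with each library rescaled to the same sum. Over all tested genes the 1st and 99th percentiles of log2 fold changes were -0.32 and 0.35. Ranked by size regardless of sign, the change of Prkab2 stood at the 80.4th percentile of all tested genes, and those of the other 7 tested members lay between the 3.4th for Strada and the 42.8th for Prkaa1.

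**Figure D3:**
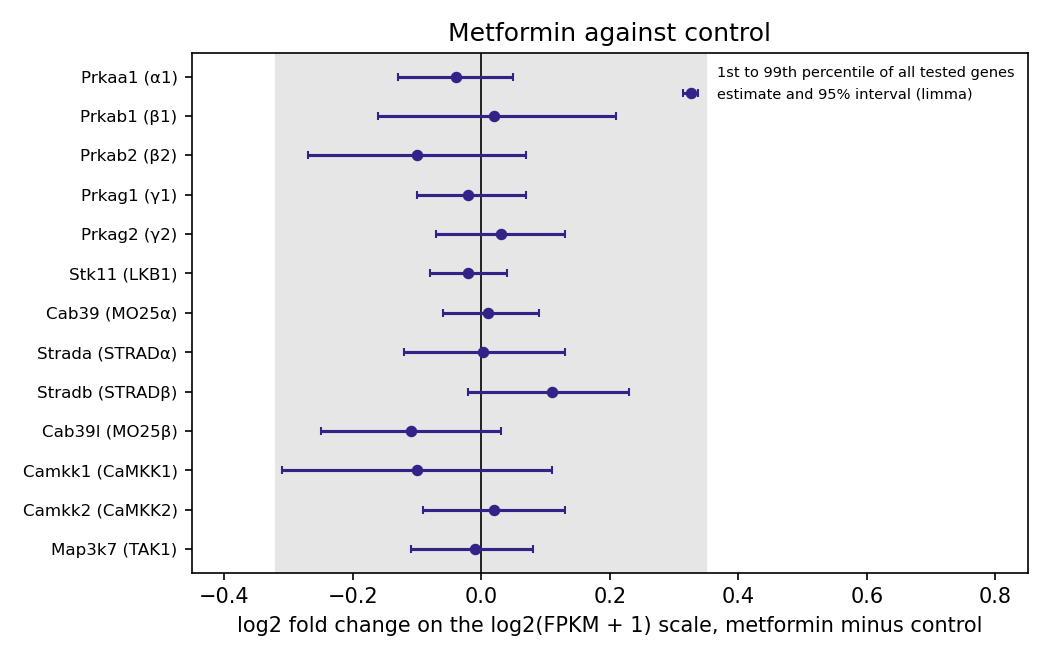
Log2 fold change on the log2(FPKM + 1) scale, metformin minus control (horizontal axis), with 95% intervals from limma for the 8 tested members and for STRADβ, MO25β and 3 other kinases upstream of AMPK. Every interval includes 0, and the grey band spans -0.32 to 0.35, the 1st to 99th percentile of all tested genes.

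The isoform make-up was compared in the same way, as the share of the first isoform in its family. The β1 share was 82.0 ± 2.77% (SD, n = 3) in control and 83.5 ± 1.67% (SD, n = 3) in metformin libraries, a difference of 1.58 percentage points which lay within the spread of single libraries (p = 0.6 by a two-sided exact permutation test). The γ1 share was 79.8 ± 0.753% and 79.2 ± 0.121% (SD, n = 3 each, exact permutation p = 0.1), a difference of -0.61 points. The STRADα share was 68.9 ± 1.19% and 67.0 ± 1.68% (SD, n = 3 each, exact permutation p = 0.2), a difference of -1.98 points, with metformin repeat 3 at 68.9% inside the control range. The MO25α share was 86.6 ± 0.788% and 87.7 ± 0.448% (SD, n = 3 each, exact permutation p = 0.1), a difference of 1.15 points. Without control repeat 1 the difference was -0.18 points for γ1 and 0.70 points for MO25α, and that of β1 was -0.01 points without control repeat 2 and 0.62 points without metformin repeat 2. The α1 share was 100% in every library. For γ1 and MO25α the groups did not overlap, although for γ1 the nearest control and metformin libraries were both at 79.3%, and exact permutation p = 0.1 is the smallest value that the design allows. After Benjamini-Hochberg adjustment over the 5 shares, the lowest value was p = 0.25 (exact permutation tests), so no share passed.

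Other kinases can act upstream of AMPK, namely the calcium-dependent CaMKK1 and CaMKK2 and the cytokine-activated TAK1. Map3k7, which encodes TAK1, had the highest FPKM of these, with 15.42, 15.90 and 15.24 FPKM in control repeats 1 to 3 and 15.14, 14.85 and 16.23 FPKM in metformin repeats 1 to 3. Its level was thus close to that of Prkaa1, although 1968 bp of its longest coding transcript have a near-identical copy elsewhere in the genome. Camkk2 had 5.57, 5.16 and 5.32 FPKM in control repeats 1 to 3 and 5.49, 5.61 and 5.23 FPKM in metformin repeats 1 to 3. Camkk1 was lowest, with 1.18, 1.13 and 1.02 FPKM in control repeats 1 to 3 and 0.86, 1.04 and 1.01 FPKM in metformin repeats 1 to 3. The ranges of the groups overlapped for these 3 kinases, and their log2 fold changes were -0.01 for Map3k7, 0.02 for Camkk2 and -0.10 for Camkk1. With a pseudocount of 0.1 in place of 1, that of Camkk1 was -0.18. Together with Stradb (log2 fold change 0.11, interval -0.02 to 0.23, adjusted p = 0.528 from limma) and Cab39l (-0.11, interval -0.25 to 0.03, adjusted p = 0.557 from limma), 0 of the 5 paralogs and upstream kinases passed the test, and 0 had an unadjusted p under 0.05, against 10.8% of all tested genes. Stradb and Cab39l were the 2 of the 5 whose groups did not overlap, against 17.0% of all tested genes.

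The remaining genes around AMPK were grouped by role. With the 5 paralogs and kinases they made 53 genes, of which 48 were tested, 21 with a higher and 27 with a lower mean log2 level in metformin libraries. In limma with Benjamini-Hochberg adjustment, 0 of the 48 passed, the lowest adjusted p was 0.423, and 2 had an unadjusted p under 0.05, against 10.8% of all tested genes. The groups did not overlap for 4 of the 48, against 17.0% of all tested genes. The median log2 fold change of the 48 was -0.0035, beside 0.0041 over all tested genes.

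Among substrates of AMPK, 21 of 22 were tested, 9 with a higher and 12 with a lower level, and the exception was Nos3, the endothelial nitric oxide synthase, at 0.16 FPKM or less. Crtc3, a coactivator of the transcription factor CREB, had 4.51, 4.72 and 4.59 FPKM in control repeats 1 to 3 and 5.29, 4.93 and 5.05 FPKM in metformin repeats 1 to 3. Each metformin library lay above each control library, with a log2 fold change of 0.12 (unadjusted p = 0.0346, adjusted p = 0.423 from limma). Its relative Crtc2 had 9.20, 9.13 and 8.80 FPKM in control repeats 1 to 3 and 10.49, 9.18 and 10.33 FPKM in metformin repeats 1 to 3, and here metformin repeat 2 lay within the control range (log2 fold change 0.13, unadjusted p = 0.0445, adjusted p = 0.450 from limma). Ulk1, a kinase that starts autophagy, had overlapping groups and a log2 fold change of -0.09 (adjusted p = 0.683 from limma). None of these 3 passed.

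LKB1 also activates kinases related to AMPK, and 8 of 12 of these were tested, 4 with a higher and 4 with a lower level. Nuak1 and Mark1 were listed at 0 FPKM in every library, and the brain kinases Brsk1 and Brsk2 reached at most 0.12 and 0.02 FPKM. Thus some of the possible targets of LKB1 had no or hardly any RNA in these cells. None of the 8 passed, against 0.0281% of all tested genes, and 0 had an unadjusted p under 0.05 in limma, against 10.8%. The genes named by rank had log2 fold changes of 0.05 for Sik3, 0.03 for Nuak2, -0.09 for Snrk and -0.03 for Mark3, with adjusted p from limma of 0.708 to 0.910.

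All 9 genes of the list for folliculin and the lysosomal scaffold of AMPK, the latter with the axin and Ragulator proteins, were tested. Of these, 5 had a higher and 4 a lower level. Axin1, a scaffold that can bring LKB1 to AMPK, had 27.54, 26.54 and 27.63 FPKM in control repeats 1 to 3 and 28.96, 27.54 and 28.20 FPKM in metformin repeats 1 to 3. The groups overlapped, with a log2 fold change of 0.05 (adjusted p = 0.590 from limma). Flcn, which encodes folliculin, likewise had a log2 fold change of 0.05 (adjusted p = 0.617 from limma), and the Ragulator genes Lamtor4 and Lamtor2 had -0.04 and -0.05. Of the 5 phosphatase genes, 1 had a higher and 4 a lower level, with log2 fold changes of 0.03 for Ppp2ca, the catalytic subunit of protein phosphatase 2A, -0.03 for Ppm1a and -0.06 for Ppm1e. In both lists 0 genes passed, against 0.0281% of all tested genes, and 0 had an unadjusted p under 0.05 in limma, against 10.8%.

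**Figure D4:**
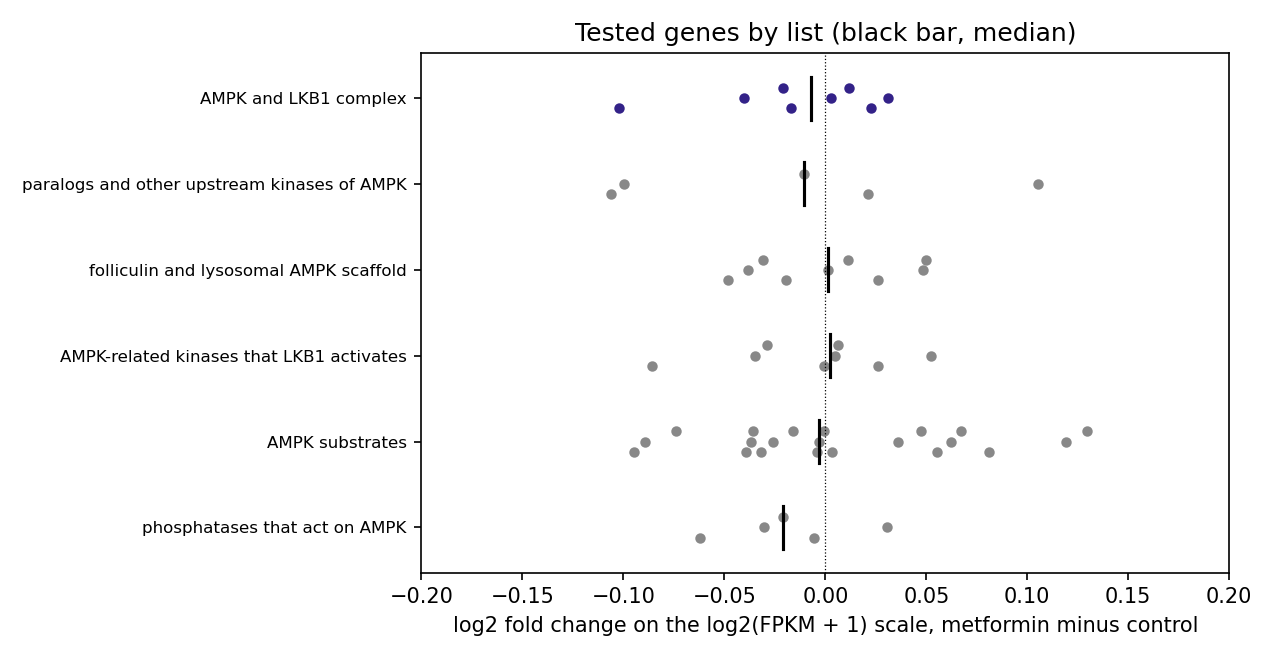
Log2 fold change on the log2(FPKM + 1) scale, metformin minus control (horizontal axis), for each tested gene of the AMPK and LKB1 members and of 5 lists of related genes, with a black bar at each list median. The points lie between -0.11 and 0.13, and none passed the adjusted threshold.

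The genes whose pattern over the 6 libraries was most like that of Prkaa1 were Usp24, with a Pearson r of 0.996 on the log2(FPKM + 1) scale, Zfp408 with 0.99 and Prpf4 with 0.988. These are descriptions over 6 libraries that share their depth and processing, and of 10660 genes compared, 94 had an r above 0.9 and 100 an r below -0.9. Among the members, the r with Prkaa1 was 0.71 for Prkab1, 0.39 for Strada, 0.17 for Prkag1 and 0.11 for Stk11. It was -0.08 for Cab39, -0.18 for Prkab2 and -0.28 for Prkag2.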

How the data were processed

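Poly(A) RNA was sequenced as 3 control and 3 metformin libraries. The authors deposited FPKM per Ensembl gene, which were not counts, and the submitters' processing notes name HISAT2, DESeq2 and mm9 without versions, whereas the gene positions in the table are those of GRCm38. The sources differ on the library kit, so whether counting used the strand is not known. Members and gene lists were chosen with earlier results of these data known. The 10661 of 55401 genes that averaged 1 FPKM or more were tested with limma 3.58.1 in R 4.3.3 on log2(FPKM + 1), with a mean-dependent prior variance, two-sided tests and Benjamini-Hochberg adjustment. This scale understates changes of low genes. The procedure was tested on simulated data. Shares and ratios were tested by exact permutation (SciPy 1.17.1). Depth was estimated from the FPKM steps of genes up to 400 bp, in which all values used were whole fragments within 0.1. Fragments per gene used GENCODE M1 exon lengths and are estimates. Copies were sought with minimap2 2.31 in NCBIM37. Named genes were the members, their paralogs and upstream kinases, from each other list up to 2 genes per direction with the smallest p, and the 3 genes most correlated with Prkaa1. A gene that this rule named is not reported here. Alternatives covered the pseudocount, filter, scaling, trend, repeat block, gene length and each library left out.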

Additional observations from a re-analysis of the deposited data

How the results depend on the processing

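No member and no gene of the pathway lists passed the adjusted threshold under any alternative run. Over all genes the count of calls was 3, 7 without a filter on low values, 2 to 3 under the other alternatives, and 3 to 4 with single libraries left out. A filter at a mean of 10 FPKM gave no value for genes below it, such as Prkab2, Prkag2 and Strada.

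Single libraries left out turned the direction of several estimates, none of which had passed the test. The log2 fold change then ranged from -0.06 to 0.07 for Prkab1, -0.05 to 0.0074 for Prkag1, -0.0082 to 0.03 for Cab39 and -0.04 to 0.04 for Strada. The ranges were -0.00054 to 0.05 for Camkk2, -0.05 to 0.01 for Map3k7, -0.06 to 0.0088 for Mark3, -0.02 to 0.08 for Nuak2, -0.10 to 0.01 for Lamtor2 and -0.07 to 0.00068 for Lamtor4. The difference in the β1 share ranged from -0.01 to 2.51 percentage points, the lowest without control repeat 2. Strada also turned, to -0.0011, with each library rescaled to the same sum.

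With the length of the longest coding transcript, an alternative chosen after seeing the data, the mean share over 6 libraries was 87.4% rather than 82.8% for β1, 66.7% rather than 79.5% for γ1 and 58.8% rather than 67.9% for STRADα. The other length makes these differences by its construction.

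Between control and metformin libraries of the same repeat number, deviations from the group means had correlations of -0.0317 to 0.0479. Between those of different numbers the correlations were -0.0504 to 0.03, so the numbers were not taken to pair the samples. With the repeat number as a block, 2 genes passed over all genes and 0 members, and the log2 fold change of Prkaa1 was -0.04 (limma, adjusted p = 0.783). Shares within pairs gave exact p of 0.25 or more, the smallest that 3 pairs allow. Depth limits the genes listed at 0, and the depth and length behind each limit cover counting error only.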
